A study of Mus musculus with 85 samples.

Results

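Sorted neural cells of the embryonic mouse brain were compared with the whole brain, both from Cre control embryos. The 6 RNA sequencing libraries of this comparison are 3 of neural cells (Cre183, Cre184 and Cre188) and 3 of whole brain (Cre_16, Cre_18 and Cre_19), out of 85 samples in the series, of which 64 are RNA libraries and 21 are chromatin immunoprecipitation samples. They were chosen by their labels: the Cre columns of the neural table and of the whole-brain table. Per the labels, all 6 come from E14.5 brain, that is, mid-gestation embryos, with the genotype Cre control. The series used Cre driven by Nestin, which acts in neural progenitors, to delete Mof, Kansl2 or Kansl3. The alleles that the controls carry are not spelled out. The neural cells were isolated by FACS with a technique the labels name EMBRACE, and the whole brains were not sorted. No label gives a litter, an extraction date, pooling of embryos or the sorter's gates, and none says that each library is a separate embryo; if they are not, the p-values measure only the spread between these samples.

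At this stage the wall of the forebrain holds dividing radial glia, intermediate progenitors that leave the ventricular zone, and young neurons that extend axons and begin to make synaptic proteins. Whole brain also contains vessels with endothelial cells and pericytes, meningeal fibroblasts, microglia that enter from the yolk sac, and blood. Tissue is dissociated and sorted as living cells, and genes that answer within minutes to a stimulus, the immediate early genes, are known to be induced during such procedures in other tissues.

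The whole-brain values are raw counts, and the neural values are reads recovered from a table that the authors had scaled. The joined table held 6202294 to 8833108 reads per neural library and 10520185 to 11522599 per whole-brain library. The 2 sets differed in ribosomal RNA. Mitochondrial ribosomal RNA took 0.101 to 0.176% of joined reads in neural libraries and 13.7 to 21.4% in whole brain, while the feature CT010467.1, listed in the neural table only, took 15.4 to 28.7% of that table's reads. Sorting, the deposited table and its gene models all run with the groups, so a difference of cells and a difference of handling cannot be told apart for any gene here. In bulk RNA, fewer cells of a type and less RNA per cell also cannot be told apart. Xist was above Ddx3y in 1 of 3 neural and in 1 of 3 whole-brain libraries.

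Of 15200 genes that passed a filter on low reads, 4672 were higher and 5181 were lower in neural cells by edgeR's quasi-likelihood test at a Benjamini-Hochberg adjusted p under 0.05, which is 30.7% and 34.1% of the genes tested. With a difference of at least 2-fold added, 774 genes were higher and 2556 were lower, or 5.09% and 16.8%. The median log2 difference over all genes tested was -0.03. Scaling by library totals alone moved that median to 0.20 and the share of higher genes among those that passed to 63.5%, against 47.4% with the trimmed mean of M values (TMM). The median absolute log2 difference between 2 libraries was 0.128 to 0.151 within neural cells, 0.162 to 0.186 within whole brain and 0.441 to 0.559 between them. Values below are normalized counts per library, which are reads brought to a common TMM-scaled library size, and log2 differences of neural cells over whole brain with their standard errors.

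**Figure D1:**
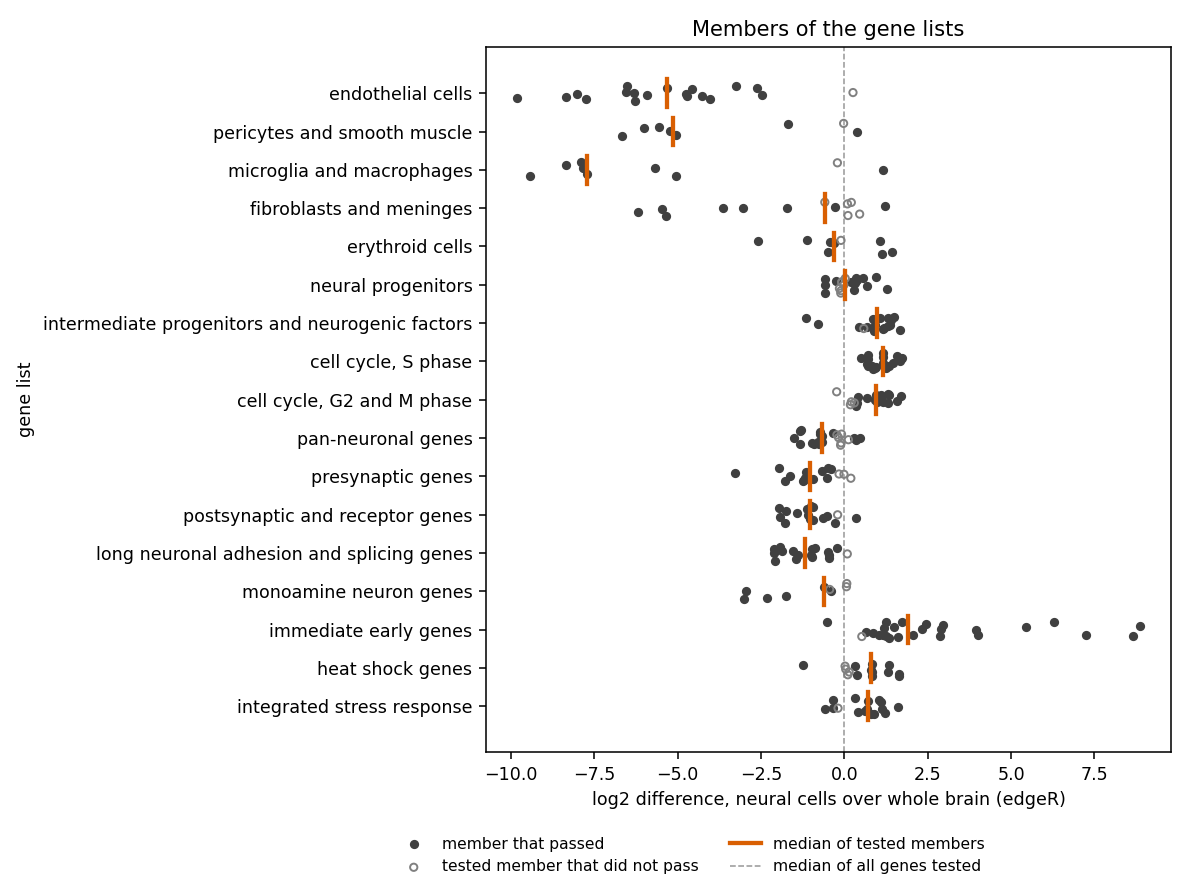
Log2 differences of neural cells over whole brain (horizontal axis) for the tested members of 17 gene lists (vertical axis); filled points passed the edgeR test, open points did not, the orange bar is the list's median and the dashed line the median of all genes tested. Vascular and microglial lists lie far to the left, immediate early genes far to the right, and S-phase genes are all on the right while presynaptic, postsynaptic and long neuronal genes lie mostly on the left.

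Most genes of vessels were at or near 0 in the neural cells. Of 22 endothelial genes, 19 passed the filter on low reads; 18 of these were lower, each by at least 2-fold, with a list median of -5.31. Cldn5, the main claudin of brain endothelial tight junctions, had 0, 0 and 2.17 normalized counts in neural cells, against 182, 206.4 and 174 in whole brain, which is 2 reads against 637 over the 3 libraries and 254-fold lower in neural cells, with a 95% counting interval of 70.05 to 2103. Tie1, an endothelial receptor tyrosine kinase, had 0 reads in each neural library and 109.6, 114 and 110.0 normalized counts in whole brain, so it was at least 99.98-fold lower against a limit of 3 reads over the neural group. Pecam1, an adhesion protein of endothelial junctions, kept a low level: 9.61, 2.72 and 6.52 normalized counts in neural cells, against 141.7, 128 and 121 in whole brain (log2 difference -4.27 ± 0.27, adjusted p = 4.9e-09 by edgeR). The groups do not overlap for any of these 3 genes. Cldn5 and Tie1 are among the largest falls, which were picked with no overlap required. Kdr, the main receptor for VEGF on endothelium, had 8.65, 24.5 and 10.9 normalized counts in neural cells, against 285, 361 and 339.6 in whole brain (log2 difference -4.56 ± 0.23, adjusted p = 2.5e-10). The exception was Mfsd2a, a lipid transporter of brain endothelium, with 276, 300.4 and 265 normalized counts in neural cells, against 262, 246 and 192.7 in whole brain and no difference that passed (adjusted p = 0.068); without Cre_16 it passed as higher (adjusted p = 0.0236). Summed over all 22 genes, the list came to 357 ± 20.7 normalized counts in neural cells and 1899.6 ± 146 in whole brain (SD, n = 3 each), and most of the neural sum is Mfsd2a.

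Genes of mural cells were mostly lower. Of 17 pericyte and smooth muscle genes, 8 passed the filter, of which 6 were lower and 1 was higher. Rgs5, a regulator of G protein signalling that marks pericytes, had 6.73, 9.51 and 9.78 normalized counts in neural cells, against 548, 574 and 543 in whole brain (log2 difference -6.00 ± 0.15, adjusted p = 1.4e-13). Abcc9 and Kcnj8 encode the 2 subunits of the pericyte ATP-sensitive potassium channel. Abcc9 had 0, 4.08 and 2.17 normalized counts in neural cells, against 189, 221 and 193.7 in whole brain. Kcnj8 had 2.88, 1.36 and 1.09 normalized counts in neural cells, against 57.0, 69.1 and 71.0 in whole brain. Pdgfrb, the receptor through which pericytes are recruited to vessels, was lower, with 59.6, 50.3 and 90.2 normalized counts in neural cells, against 176, 256.8 and 224 in whole brain (log2 difference -1.70 ± 0.20, adjusted p = 2.6e-06). Notch3 had 631, 479.8 and 517 normalized counts in neural cells, against 613, 526 and 523 in whole brain, which did not pass. Mcam had 276, 246 and 241 normalized counts in neural cells, against 223, 208 and 156 in whole brain and was higher (log2 difference 0.38 ± 0.13, adjusted p = 0.018), a call lost without Cre_19 (adjusted p = 0.0804) or without Cre183 (adjusted p = 0.0811). The other 9 genes were not tested and came to 49 reads in neural cells and 167 in whole brain; Acta2 among them had 2 and 6.

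Most microglial genes were at or near 0 in neural cells. Of 18 genes, 9 passed the filter, and 7 of these were lower and 1 higher; the 9 untested genes came to 15 reads in neural cells and 285 in whole brain. The count of lower genes was 12, 13 and 12 without Cre183, Cre184 and Cre188, 16 with no filter on low reads, 15 with all 18 libraries in the fit and 4 over genes with the same Ensembl version only. Csf1r, the receptor on which microglia depend for survival, had 0 reads in each neural library and 90.9, 78.0 and 87.6 normalized counts in whole brain, at least 76.6-fold lower. Fcrls, C1qc, C1qa and P2ry12 were also at 0 reads in all 3 neural libraries. Cx3cr1, the fractalkine receptor, had 0.961, 0 and 1.09 normalized counts in neural cells, against 41.0, 39.8 and 51.6 in whole brain, or 59.0-fold lower in neural cells, with a 95% counting interval of 16.1 to 492. Among the untested members, Trem2 had 0 reads in neural cells and 44 in whole brain. Sall1 had 355, 325 and 361 normalized counts in neural cells, against 447, 445 and 311 in whole brain, which did not pass, although without Cre_19 it was lower (adjusted p = 0.00265). Cd68, a lysosomal membrane protein, was higher in neural cells, with 98.0, 93.8 and 96.7 normalized counts in neural cells, against 45.4, 36.6 and 48.7 in whole brain (log2 difference 1.15 ± 0.18, adjusted p = 5.4e-05). Sall1 and Cd68 are thus the genes of this list with many reads in cells in which Csf1r has none.

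**Figure D2:**
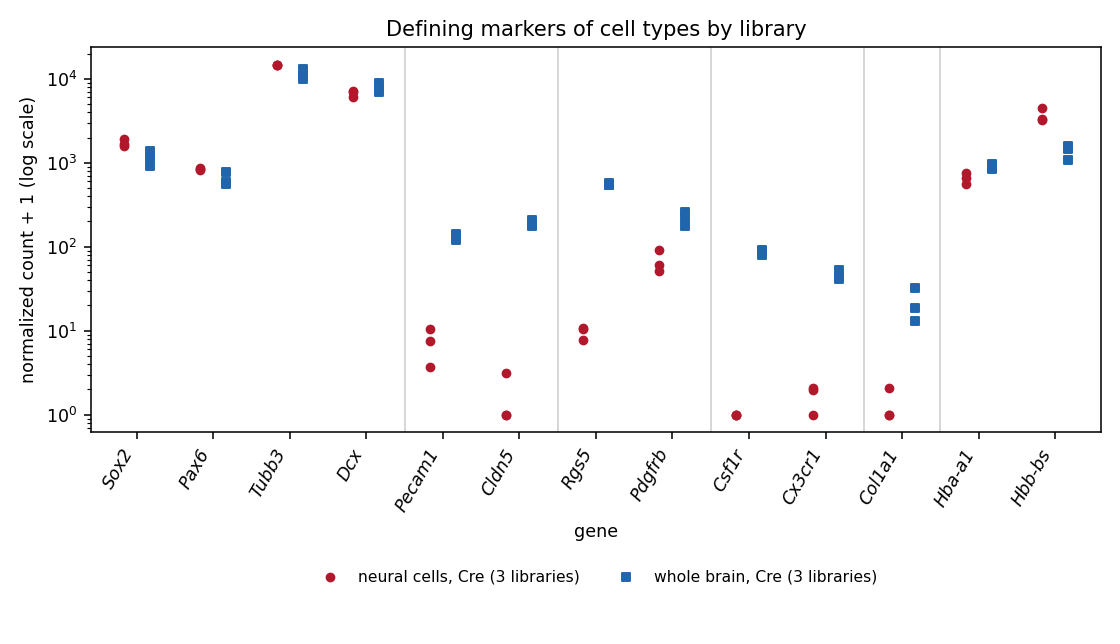
Normalized count plus 1 on a log scale (vertical axis) for defining markers of neural, endothelial, mural, microglial, fibroblast and erythroid cells (horizontal axis), with neural cells as red circles and whole brain as blue squares, 1 point per library. Neural markers lie at similar heights in both groups, the markers of vessels, microglia and fibroblasts are lower in every neural library than in any whole-brain library, and both globins remain above 500 in every library.

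Fibroblast and meningeal genes were split. Of 23, 13 passed the filter, 7 were lower and 1 was higher. Foxc1, a transcription factor of meninges and mural cells, had 0, 1.36 and 0 normalized counts in neural cells, against 32.1, 41.4 and 35.0 in whole brain. Col3a1, a fibrillar collagen, had 0, 1.36 and 2.17 normalized counts in neural cells, against 50.8, 62.6 and 51.6 in whole brain. Col1a1 had 0, 0 and 1.09 normalized counts in neural cells, against 31.2, 12.2 and 17.5 in whole brain. Nid1, a basement membrane linker, had 26.9, 36.7 and 63.02 normalized counts in neural cells, against 314, 385 and 344.5 in whole brain (log2 difference -3.05 ± 0.20, adjusted p = 5.9e-09). Prrx1 and Col5a1 did not pass. Crabp2, which binds retinoic acid, was higher in neural cells, with 189, 122 and 123 normalized counts in neural cells, against 69.5, 60.95 and 57.4 in whole brain (log2 difference 1.22 ± 0.19, adjusted p = 5.3e-05). Of 18 basement membrane and matrix genes, 12 were lower and 3 higher: Col4a1 had 167, 116.9 and 153 normalized counts in neural cells, against 1003, 1307 and 893 in whole brain. Lama4, the laminin chain of vessel walls, had 15.4, 13.6 and 24.99 normalized counts in neural cells, against 208, 217 and 204.4 in whole brain. Igf2, an imprinted growth factor, had 1.92, 2.72 and 3.26 normalized counts in neural cells, against 170.2, 161 and 165 in whole brain (log2 difference -5.93 ± 0.27, adjusted p = 7.8e-11).

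Red cell RNA was present in both groups. Hbb-bs, an adult beta globin, was higher in neural cells, with 3240.3, 3309.7 and 4491 normalized counts in neural cells, against 1089.6, 1459.7 and 1571 in whole brain (log2 difference 1.42 ± 0.14, adjusted p = 5.0e-07). Hba-a1, an adult alpha globin, was slightly lower, with 560.2, 661 and 754 normalized counts in neural cells, against 840.1, 963 and 855 in whole brain (log2 difference -0.43 ± 0.10, adjusted p = 0.0018). Embryonic globins were lower. Hba-x had 18.3, 14.95 and 19.6 normalized counts in neural cells, against 126, 90.2 and 109 in whole brain. Hbb-y had 403, 314 and 347 normalized counts in neural cells, against 1089, 554 and 705 in whole brain. Embryonic forms were 5.71 to 8.91% of beta globin reads in neural libraries and 21.99 to 42.3% in whole brain. Among alpha globin reads, Hba-x was 1.61 to 2.16% in neural cells and 6.25 to 9.69% in whole brain. Globin paralogs share sequence, so the split of reads among them is uncertain, most of all within the adult pairs, which are near-identical. Summed, Hbb-bs and Hbb-bt had a log2 ratio of 1.34, and Hba-a1 and Hba-a2 had 1 of -0.44. By edgeR, Hba-a1 did not pass under totals-only scaling (adjusted p = 0.144) or with 18 libraries in the fit (adjusted p = 0.403). Hbb-y also lost its call in the 18-library fit (adjusted p = 0.107).

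Neural markers were well detected in the sorted cells. Tubb3, the neuronal beta tubulin, had 14637, 14659 and 14487 normalized counts in neural cells, against 11195, 12975 and 9965 in whole brain (log2 difference 0.36 ± 0.11, adjusted p = 0.0079). Dcx, the microtubule protein of migrating neurons, had 6020.3, 6959 and 7069 normalized counts in neural cells, against 6903, 8815 and 7720.3 in whole brain and did not pass (adjusted p = 0.074). Without Cre_16 or without Cre_19 Dcx was lower (adjusted p = 0.0292 and 0.0449). Sox2 and Pax6, transcription factors of radial glia, were modestly higher. Sox2 had 1902, 1651 and 1600.5 normalized counts in neural cells, against 1383, 1184 and 903 in whole brain (log2 difference 0.57 ± 0.12, adjusted p = 7.4e-04). Pax6 had 843, 856 and 823 normalized counts in neural cells, against 776, 591 and 557 in whole brain (log2 difference 0.39 ± 0.11, adjusted p = 0.0051). Of 20 neural progenitor genes, all of which were tested, 9 were higher and 4 lower, and the list median was 0.00. Hes1, a Notch effector that keeps progenitors undifferentiated, had 325, 343 and 304 normalized counts in neural cells, against 151, 138 and 109 in whole brain (log2 difference 1.28 ± 0.12, adjusted p = 3.8e-07). Prom1, a protein of the apical membrane, had 1012, 1033 and 988 normalized counts in neural cells, against 585, 549 and 437 in whole brain (log2 difference 0.95 ± 0.10, adjusted p = 9.0e-07). Fabp7, the fatty acid binding protein of radial glia, was lower, with 2148, 2394 and 2287 normalized counts in neural cells, against 3765, 3057 and 3349 in whole brain (log2 difference -0.58 ± 0.09, adjusted p = 5.8e-05). Msi1, an RNA-binding protein of progenitors, had 885, 794 and 752 normalized counts in neural cells, against 1314, 1243 and 1121 in whole brain (log2 difference -0.60 ± 0.08, adjusted p = 2.0e-05). Progenitor markers thus moved both ways by less than 1.3 log2 units.

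Genes of the step from progenitor to neuron were higher. Of 18 intermediate progenitor and neurogenic factors, 15 were higher, 9 of them at least 2-fold, and 2 were lower, with a median of 0.99. Insm1, a zinc finger factor that promotes basal progenitors, had 1181, 1265 and 1292 normalized counts in neural cells, against 375, 491 and 315 in whole brain (log2 difference 1.66 ± 0.12, adjusted p = 2.3e-08). Dll1, a Notch ligand shown by cells that are committing to differentiate, had 1976, 1842 and 1724 normalized counts in neural cells, against 837, 676 and 601 in whole brain (log2 difference 1.39 ± 0.10, adjusted p = 2.4e-08). Neurod2, a transcription factor of young excitatory neurons, had 2119, 2453 and 2477 normalized counts in neural cells, against 877, 1085 and 766 in whole brain (log2 difference 1.37 ± 0.11, adjusted p = 6.5e-08). Btg2, an antiproliferative gene of neurogenic divisions that is also a p53 target and answers early to stimuli, had 1296, 1086 and 1005 normalized counts in neural cells, against 464, 401 and 352 in whole brain (log2 difference 1.48 ± 0.11, adjusted p = 3.3e-08). For these 4 genes no neural library fell within the whole-brain range, but they were picked by smallest p, so this adds no separate support. Of the members that were lower, Tbr1, a factor of deep-layer cortical neurons chosen after its values were seen, had 355.5, 397 and 447 normalized counts in neural cells, against 728, 784 and 575 in whole brain (log2 difference -0.80 ± 0.12, adjusted p = 2.9e-05).

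Cell cycle genes were higher as a group. All 20 S-phase genes were tested and higher, 11 of them at least 2-fold, with a median of 1.15. Mcm5, a subunit of the replicative helicase, had 1497, 1352 and 1415 normalized counts in neural cells, against 505, 525 and 308 in whole brain (log2 difference 1.67 ± 0.14, adjusted p = 1.1e-07). Pcna, the sliding clamp of DNA polymerases, had 1847, 1912 and 1820.0 normalized counts in neural cells, against 822, 766 and 616 in whole brain (log2 difference 1.34 ± 0.09, adjusted p = 1.2e-08). Cdt1, which loads the helicase at origins, had 449.7, 381 and 336 normalized counts in neural cells, against 138, 128 and 96.3 in whole brain (log2 difference 1.68 ± 0.14, adjusted p = 8.8e-08). Of 20 G2 and M phase genes, 16 were higher and none lower. Ccnb1, the mitotic cyclin, had 1306, 1289.9 and 1264 normalized counts in neural cells, against 515, 369.8 and 299 in whole brain (log2 difference 1.70 ± 0.14, adjusted p = 6.4e-08). Cdc20, an activator of the anaphase-promoting complex, had 966, 1000.4 and 913 normalized counts in neural cells, against 378, 375 and 214 in whole brain (log2 difference 1.57 ± 0.15, adjusted p = 4.7e-07). The proliferation marker Mki67, chosen after its values were seen, had 3709, 3383 and 3297 normalized counts in neural cells, against 3433, 3095 and 1932 in whole brain and did not pass (adjusted p = 0.10), but was higher without Cre_16 (adjusted p = 0.0112). Whole-brain Cre_19 was the lowest of the 3 whole-brain libraries for each of these 6 genes. With any 1 library left out, all 20 S-phase genes and 13 to 18 of the G2 and M phase genes were higher. Replication-dependent histone genes, added after seeing the data, moved the same way, with 52 of 61 tested higher and 7 lower. Their messages lack poly(A) tails, and how RNA was selected for the libraries is not recorded.

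Promoters of replication genes are shown to set their letters beside the direction the genes share. E2F sites, searched on both strands as TTTCCCGC, TTTCGCGC, TTTGCCGC or TTTGGCGC between 250 bases before and 50 after each RefSeq start (build GRCm38.p6), were found in 7 of 17 S-phase genes that have a promoter in the table, and in 2.60% of all 27025 gene symbols. By the same search, E2F sites were found in 1 of 17 G2 and M phase genes, a list of which 16 of 20 were higher. The stretches below are from before the start, 5′ to 3′ on the strand of the gene, with the matched letters in capitals. These are matches of letters, not measured sites.
Mcm5, chr8:75109312-75109411, + strand: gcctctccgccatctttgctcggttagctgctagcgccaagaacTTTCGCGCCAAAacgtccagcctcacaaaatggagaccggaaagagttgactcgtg
Mcm6, chr1:128359731-128359830, - strand: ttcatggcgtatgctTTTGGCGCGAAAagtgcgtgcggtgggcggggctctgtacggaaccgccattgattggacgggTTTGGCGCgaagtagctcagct
Mcm7, chr5:138171995-138172094, - strand: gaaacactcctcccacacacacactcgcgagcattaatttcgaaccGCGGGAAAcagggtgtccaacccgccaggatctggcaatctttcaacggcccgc
Cdc6, chr11:98907967-98908066, + strand: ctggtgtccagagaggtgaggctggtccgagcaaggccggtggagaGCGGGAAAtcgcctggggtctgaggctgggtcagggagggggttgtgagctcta
Uhrf1, chr17:56304082-56304181, + strand: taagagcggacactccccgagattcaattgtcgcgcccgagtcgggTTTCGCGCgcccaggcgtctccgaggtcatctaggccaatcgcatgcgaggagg
Matches may overlap, since the letters of 1 strand can run into those of the other. Mcm5 holds 2 that overlap, the farther of which begins 153 bases before the start. Mcm6 holds 3, of which those at 110 and 106 bases overlap and the last begins at 47. Mcm7, Cdc6 and Uhrf1 hold 1 match each. Mcm6, Cdc6 and Uhrf1, chosen after their values were seen, had log2 differences of 0.94, 1.73 and 0.90. Mcm7 had 1.15.

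Of 22 pan-neuronal genes, which include genes of young neurons such as Dcx, 13 were lower and 3 higher, with a median of -0.67. Those lower included 3 intermediate filament genes. Ina had 1136, 1230.1 and 1189 normalized counts in neural cells, against 3169, 3829.6 and 3149 in whole brain (log2 difference -1.51 ± 0.09, adjusted p = 2.5e-09). Nefl had 498, 438 and 445 normalized counts in neural cells, against 1017, 1323 and 1155 in whole brain (log2 difference -1.34 ± 0.10, adjusted p = 2.7e-08). Nefm was also lower. Syt1, the calcium sensor of synaptic vesicle release, had 652, 642.9 and 674 normalized counts in neural cells, against 1164, 1349 and 1340.1 in whole brain (log2 difference -0.97 ± 0.08, adjusted p = 7.3e-08). Crmp1, a protein of growth cones, had 2016, 2005 and 2381 normalized counts in neural cells, against 5139.6, 6359 and 4713 in whole brain (log2 difference -1.34 ± 0.11, adjusted p = 1.0e-07). Tubb3, Elavl3 and Dpysl3 were the 3 that were higher.

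Synaptic genes were lower. Of 16 presynaptic genes, 13 were lower, 8 of them at least 2-fold, and none was higher (median -1.04). Pclo, a scaffold of the active zone, had 370.0, 383 and 406 normalized counts in neural cells, against 1287, 1462 and 1780.0 in whole brain (log2 difference -1.97 ± 0.11, adjusted p = 8.3e-10). Bsn, its relative, had 531, 511 and 604 normalized counts in neural cells, against 1131, 1345 and 1428 in whole brain (log2 difference -1.24 ± 0.10, adjusted p = 4.3e-08). Stx1a, a syntaxin of the release machinery, had 122, 141.4 and 167 normalized counts in neural cells, against 404, 426 and 519 in whole brain (log2 difference -1.65 ± 0.13, adjusted p = 5.1e-08). Syp, a vesicle membrane protein, had 439, 462 and 445 normalized counts in neural cells, against 896, 1104 and 963 in whole brain (log2 difference -1.14 ± 0.09, adjusted p = 5.5e-08). Every neural library lay below every whole-brain library for these 4 genes. They were picked by smallest p, so this adds no separate support. Of 16 postsynaptic and receptor genes, 14 were lower, 8 at least 2-fold, and 1 was higher (median -1.02). Camk2b, a kinase of the postsynaptic density, had 201, 224 and 239 normalized counts in neural cells, against 746, 889.9 and 908 in whole brain (log2 difference -1.94 ± 0.11, adjusted p = 7.3e-10). Grin1, the obligatory subunit of NMDA receptors, had 102, 97.9 and 90.2 normalized counts in neural cells, against 322, 362 and 443 in whole brain (log2 difference -1.95 ± 0.13, adjusted p = 1.1e-08). Gria1, an AMPA receptor subunit, had 304, 313 and 365 normalized counts in neural cells, against 961, 1113 and 1229 in whole brain (log2 difference -1.75 ± 0.11, adjusted p = 2.4e-09). The 1 that was higher was Homer1, chosen after its values were seen, a postsynaptic scaffold whose short form is known to be induced by activity, with 1048, 1085 and 1128 normalized counts in neural cells, against 805, 833 and 908 in whole brain (log2 difference 0.36 ± 0.07, adjusted p = 7.0e-04).

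Transcription factors of brain regions moved both ways, as did all genes tested, of which 30.7% were higher and 34.1% lower. Of 16 telencephalic and cortical factors, 8 were higher and 3 lower. Emx1, a factor of dorsal telencephalic progenitors, had 541, 533 and 530.2 normalized counts in neural cells, against 168, 227 and 139.2 in whole brain (log2 difference 1.58 ± 0.13, adjusted p = 1.1e-07). Lhx2, a selector of cortical identity, had 1645, 1661 and 1627 normalized counts in neural cells, against 944, 980.2 and 853 in whole brain (log2 difference 0.83 ± 0.07, adjusted p = 1.5e-07). Lmo4 had 941, 929.7 and 924 normalized counts in neural cells, against 478, 462 and 436 in whole brain (log2 difference 1.02 ± 0.08, adjusted p = 3.6e-08). Of 20 inhibitory neuron genes, 6 were higher and 5 lower. These counts were 10 higher and 5 lower without whole-brain Cre_16, and 10 higher and 3 lower with library totals only. Foxp1, a factor of striatal and cortical neurons, had 523, 439 and 502 normalized counts in neural cells, against 733, 816 and 753 in whole brain (log2 difference -0.65 ± 0.09, adjusted p = 1.6e-05). Of 18 thalamic and hypothalamic factors, 15 were tested, 1 was higher and 3 were lower, and most (11) did not pass. Otp, a factor of neuroendocrine hypothalamus, had 19.2, 17.7 and 13.04 normalized counts in neural cells, against 93.5, 75.6 and 60.3 in whole brain (log2 difference -2.19 ± 0.26, adjusted p = 3.2e-06). Tcf7l2, a factor of thalamic neurons, had 394, 326 and 341 normalized counts in neural cells, against 878, 923 and 1123 in whole brain (log2 difference -1.46 ± 0.11, adjusted p = 2.4e-08). Of 25 midbrain and hindbrain factors, 18 were tested, with 5 higher and 5 lower; Lmx1b had 25.9, 17.7 and 16.3 normalized counts in neural cells, against 71.3, 82.1 and 85.6 in whole brain (log2 difference -1.97 ± 0.23, adjusted p = 3.2e-06). Otx2, a factor of forebrain and midbrain, was higher with 862, 654 and 678 normalized counts in neural cells, against 347, 368 and 460.3 in whole brain (log2 difference 0.91 ± 0.12, adjusted p = 1.3e-05). Hox genes, which mark hindbrain and spinal cord, had 3 reads in all neural libraries and 27 in all whole-brain libraries over 20 genes, so none was tested.

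Genes of monoamine neurons and of the oligodendrocyte lineage were mostly lower. Of 13 monoamine neuron genes, 9 were tested, 6 were lower and none was higher. Tph2, the serotonin-synthesizing enzyme of the brain, had 4.80, 2.72 and 2.17 normalized counts in neural cells, against 26.7, 31.7 and 25.3 in whole brain (log2 difference -3.03 ± 0.39, adjusted p = 8.8e-06). Slc6a4, the serotonin transporter, had 4.80, 4.08 and 3.26 normalized counts in neural cells, against 34.7, 33.3 and 29.2 in whole brain (log2 difference -2.96 ± 0.35, adjusted p = 3.8e-06). Foxa2, a floor plate and dopaminergic progenitor factor, had 12.5, 4.08 and 8.69 normalized counts in neural cells, against 36.5, 41.4 and 55.5 in whole brain (log2 difference -2.31 ± 0.34, adjusted p = 3.2e-05). Hypothalamic neuropeptides were mixed: of 13, 6 were tested, 3 were lower, 1 was higher and 2 did not pass. Pomc was the 1 that was higher (log2 difference 0.72 ± 0.28, adjusted p = 0.037 by edgeR). Nts had 18.3, 13.6 and 11.95 normalized counts in neural cells, against 83.7, 74.0 and 95.4 in whole brain (log2 difference -2.50 ± 0.24, adjusted p = 4.4e-07). Sst had 128, 132 and 146 normalized counts in neural cells, against 254, 295.8 and 280.3 in whole brain (log2 difference -1.03 ± 0.11, adjusted p = 1.6e-06). Of 9 oligodendrocyte lineage genes, 6 were tested and 5 were lower: Nkx2-2, a factor of ventral progenitors, had 8.65, 2.72 and 6.52 normalized counts in neural cells, against 63.3, 38.2 and 38.9 in whole brain (log2 difference -2.88 ± 0.38, adjusted p = 1.0e-05). Cspg4, a proteoglycan of oligodendrocyte precursors and also of pericytes, had 31.7, 21.7 and 23.9 normalized counts in neural cells, against 82.0, 112.97 and 93.4 in whole brain (log2 difference -1.87 ± 0.22, adjusted p = 3.2e-06). Olig2, chosen after its values were seen, was the member that was higher, with 181, 185 and 175 normalized counts in neural cells, against 138, 132 and 90.5 in whole brain (log2 difference 0.57 ± 0.15, adjusted p = 0.0039). Of 10 astroglial genes, 8 were tested, 4 were lower and 1 higher; Slc1a2, a glutamate transporter, had 1092, 1097 and 1063 normalized counts in neural cells, against 2238, 2283 and 2361 in whole brain (log2 difference -1.08 ± 0.07, adjusted p = 6.5e-09).

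The difference between the groups also ran with the length of genes. Over 12664 protein-coding genes with 1 RefSeq span, the median log2 difference was 0.24 for genes under 5 kb (n = 1258), 0.09 for 20 to 50 kb (n = 3444), -0.46 for 200 to 500 kb (n = 674) and -0.97 for genes over 500 kb (n = 206). Of the longest genes, 47.1% were lower by at least 2-fold and none was higher by as much. With any 1 library left out, their median stayed between -1.04 and -0.87. This is a description across genes, which are not independent replicates. All 18 genes of the list of long neuronal adhesion and splicing genes span 966 to 2271 kb, and 17 were lower. Csmd1, a transmembrane complement regulator, had 152, 171 and 177 normalized counts in neural cells, against 567, 684 and 899 in whole brain (log2 difference -2.11 ± 0.15, adjusted p = 1.5e-08). Ptprt, a receptor phosphatase, had 199.9, 228 and 256 normalized counts in neural cells, against 788, 1029.7 and 1069.5 in whole brain (log2 difference -2.08 ± 0.13, adjusted p = 2.6e-09). Synaptic genes under 50 kb were lower too: of 10 presynaptic genes of that length 8 were lower, with a median of -0.80, against 0.15 for all 8669 protein-coding genes under 50 kb. Pan-neuronal genes split by length, with a median of -0.09 for the 7 under 50 kb and -0.68 for the 15 that are longer. All tested S-phase, neurogenic and immediate early genes span less than 50 kb, and their medians lie above that of genes of this length.

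**Figure D3:**
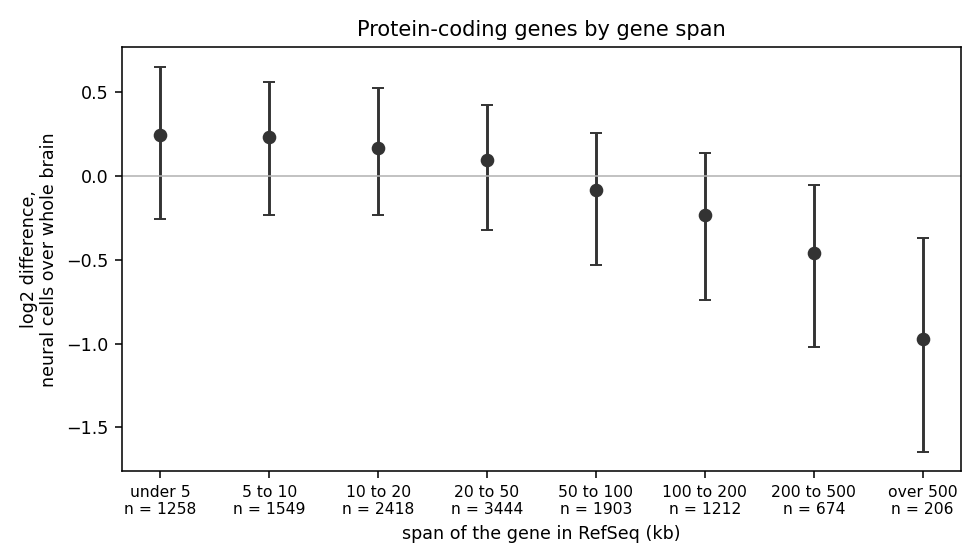
Median log2 difference of neural cells over whole brain (vertical axis; bars run from the first to the third quartile of genes) for protein-coding genes grouped by RefSeq span in kb (horizontal axis). The median is above 0 for genes under 50 kb and falls step by step for longer genes, being lowest for genes over 500 kb.

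Immediate early genes had the highest median of the lists. Of 30 genes, 26 were tested: 24 were higher, 22 of them at least 2-fold, and 1 was lower, with a median of 1.89. Fos, a subunit of the AP-1 transcription factor, had 2149.6, 2544 and 2541 normalized counts in neural cells, against 6.24, 7.31 and 3.89 in whole brain (log2 difference 8.64 ± 0.15, adjusted p = 3.7e-15). Its relative Fosb had 430.5, 484 and 499.8 normalized counts in neural cells, against 0.891, 1.63 and 0 in whole brain, which is 1264 reads against 3 over the 3 libraries and 528-fold higher in neural cells, with a 95% counting interval of 180.3 to 2565. Egr1, a zinc finger factor induced by growth factors and activity, had 709, 552 and 623 normalized counts in neural cells, against 4.45, 8.13 and 11.7 in whole brain (log2 difference 6.28 ± 0.19, adjusted p = 8.1e-13). Egr2 had 117.2, 88.3 and 117.3 normalized counts in neural cells, against 0, 1.63 and 0 in whole brain, or 185-fold higher in neural cells, with a 95% counting interval of 50.7 to 1534. These 4 genes were below 12 normalized counts in every whole-brain library and above 88 in every neural library. All are among the largest rises, which were picked with no overlap required. Other AP-1 subunits rose as well. Jun had 2565, 2116 and 2310.0 normalized counts in neural cells, against 291, 409.6 and 234 in whole brain (log2 difference 2.90 ± 0.15, adjusted p = 3.0e-10). Junb had 299, 303 and 286 normalized counts in neural cells, against 22.3, 23.6 and 10.7 in whole brain (log2 difference 3.94 ± 0.19, adjusted p = 1.5e-10). Jund had 2675, 2589 and 2529 normalized counts in neural cells, against 778, 899.7 and 690.0 in whole brain (log2 difference 1.72 ± 0.09, adjusted p = 6.2e-10). Atf3, a stress-induced repressor, had 113.4, 105 and 103 normalized counts in neural cells, against 0.891, 4.88 and 0.973 in whole brain (log2 difference 5.43 ± 0.35, adjusted p = 5.0e-09). Dusp5, a phosphatase that switches off ERK in the nucleus, had 213, 202.5 and 225 normalized counts in neural cells, against 8.91, 14.6 and 16.5 in whole brain (log2 difference 3.99 ± 0.20, adjusted p = 2.4e-10). Ier2 had 281, 253 and 258 normalized counts in neural cells, against 39.2, 36.6 and 32.1 in whole brain (log2 difference 2.87 ± 0.14, adjusted p = 2.7e-10).

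Arc, a capsid-like protein of synapses, had 125, 125 and 105 normalized counts in neural cells, against 35.6, 25.2 and 23.4 in whole brain (log2 difference 2.07 ± 0.20, adjusted p = 4.7e-07). Npas4, a factor induced by depolarization, had 73.0, 72.0 and 58.7 normalized counts in neural cells, against 16.9, 25.2 and 38.9 in whole brain (log2 difference 1.34 ± 0.26, adjusted p = 3.9e-04). Nr4a1, an orphan nuclear receptor, had 58.6, 66.6 and 59.8 normalized counts in neural cells, against 20.5, 31.7 and 25.3 in whole brain (log2 difference 1.24 ± 0.22, adjusted p = 2.1e-04). Zfp36, which destabilizes messages with AU-rich elements, had 29.8, 29.9 and 22.8 normalized counts in neural cells, against 17.8, 26.0 and 12.7 in whole brain and did not pass, but was higher without Cre_18 (adjusted p = 0.0416). Myc was the member that was lower, with 67.3, 76.1 and 67.4 normalized counts in neural cells, against 95.3, 104 and 105 in whole brain (log2 difference -0.54 ± 0.16, adjusted p = 0.0076), a call it lost when libraries were scaled by their totals alone (adjusted p = 0.112). The list's Cyr61 and Ctgf are named Ccn1 and Ccn2 in the tables and were not matched; Ccn1, chosen after its values were seen, had 738, 726 and 627 normalized counts in neural cells, against 82.0, 78.8 and 67.1 in whole brain (log2 difference 3.19 ± 0.11, adjusted p = 4.6e-12).

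**Figure D4:**
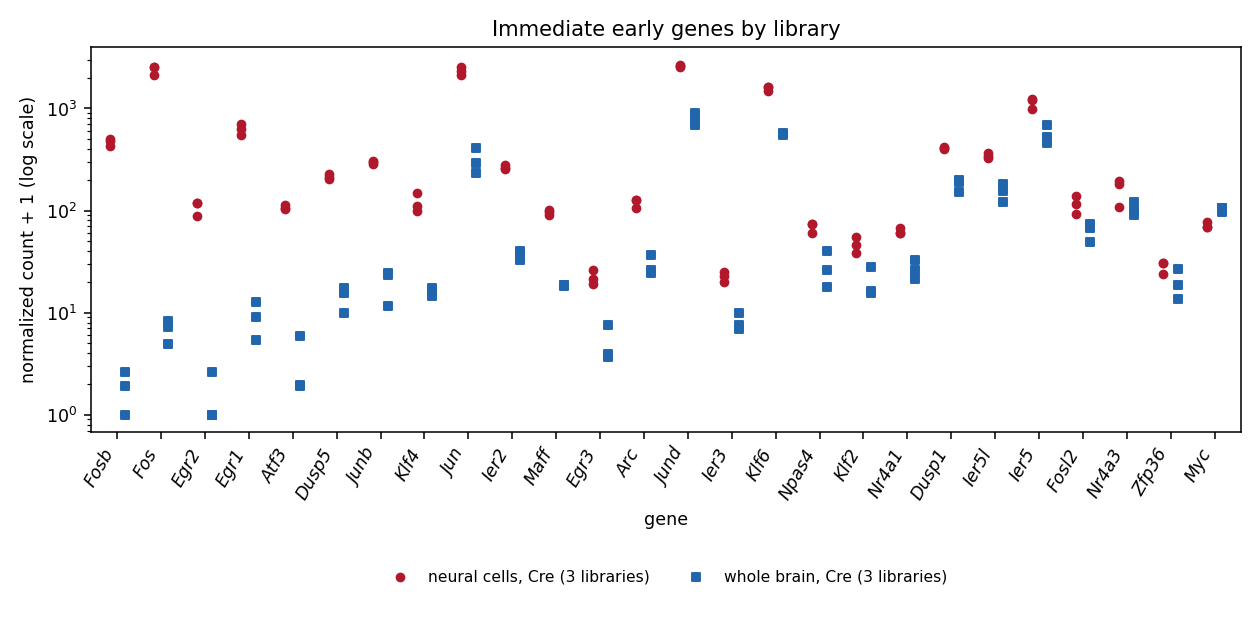
Normalized count plus 1 on a log scale (vertical axis) for the 26 tested immediate early genes (horizontal axis, ordered by log2 difference), with neural cells as red circles and whole brain as blue squares, 1 point per library. The 3 neural libraries lie above the 3 whole-brain libraries for nearly all genes, most widely for Fosb, Fos, Egr2 and Egr1 on the left, and Myc on the right is the reverse.

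Serum response factor, encoded by Srf, drives many of these genes through the CArG box, a core of A and T letters framed by CC and GG. Srf was not in the list, was chosen after its values were seen, and had 1710.5, 1624 and 1771 normalized counts in neural cells, against 300.2, 342 and 283 in whole brain (log2 difference 2.46 ± 0.09, adjusted p = 3.7e-12). CArG boxes were found between 250 bases before and 50 after a start in 3 of 22 immediate early genes with a promoter in the table (Egr2, Dusp5 and Zfp36) and in 1.81% of all gene symbols. The full cAMP response element TGACGTCA was found in 2 of the list (Dusp1 and Maff) and in 2.03% of all. The stretches that hold CArG boxes in 2 of the steepest rises and in Srf itself are given from RefSeq on build GRCm38.p6, 5′ to 3′ on the gene's strand, with each box in capitals.
Egr2, chr10:67537449-67537548, + strand: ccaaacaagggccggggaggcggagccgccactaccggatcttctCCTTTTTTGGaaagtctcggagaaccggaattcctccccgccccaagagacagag
Dusp5, chr19:53529023-53529122, + strand: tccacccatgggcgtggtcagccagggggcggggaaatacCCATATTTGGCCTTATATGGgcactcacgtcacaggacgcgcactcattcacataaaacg
Srf, chr17:46556180-46556279, - strand: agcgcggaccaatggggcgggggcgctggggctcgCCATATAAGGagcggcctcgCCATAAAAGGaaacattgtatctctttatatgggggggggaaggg
Egr2 holds 1 box, 72 bases before its start; Dusp5 holds 2 that abut; Srf holds 2 that stand 82 and 62 bases before its start. These are letters in a window, and binding was not measured.

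Levels of 4 immediate early genes were set beside those of the other sorted libraries. In CPM, reads scaled to a common library total, Fos ranged from 124 to 302 over 6 neural libraries, Mof knockouts included, against 0.484 to 5.71 over all 12 whole-brain libraries. Sorted endothelial cells of Cre embryos had 292.2 to 529.8, sorted pericytes 2428 to 2848, and sorted microglia 2029 to 2450.1. Egr1 in neural cells ranged over 65.6 to 83.6 CPM. Its range was 162 to 417 CPM for endothelial cells, 1242 to 1681 for pericytes and 2165 to 2785 for microglia, and 0.545 to 4.98 for whole brain. Libraries of the other sorted cells were made with another kit, so their values are set beside these and not tested. Egr2 in neural cells ranged over 7.80 to 13.9 CPM. Its range was 6.71 to 29.5 CPM for endothelial cells, 48.1 to 63.9 for pericytes and 200.4 to 227 for microglia, and 0 to 1.25 for whole brain. Dusp5 had another order, and in neural cells ranged over 17.9 to 26.7 CPM. Its range was 5.18 to 16.9 CPM for endothelial cells, 3.98 to 18.3 for pericytes and 80.0 to 150.1 for microglia, and 1.09 to 3.17 for whole brain. For Fos and Egr1 every sorted library was far above every whole-brain one, while for Dusp5 the lowest pericyte library came close to the highest whole-brain one, and the part of sorting in these levels was not tested.

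Stress genes rose in part. Of 18 heat shock genes, 15 were tested, 10 were higher and 1 lower (median 0.79). Hspa8, the constitutive HSP70, had 20826, 21686 and 20721 normalized counts in neural cells, against 8360.2, 9882 and 7023 in whole brain (log2 difference 1.32 ± 0.12, adjusted p = 2.0e-07). Dnajb1, its inducible partner, had 819, 869.9 and 828 normalized counts in neural cells, against 351.01, 341 and 318 in whole brain (log2 difference 1.31 ± 0.08, adjusted p = 4.9e-09). The strongly heat-induced Hspa1a had 10.6, 5.44 and 16.3 normalized counts in neural cells, against 5.35, 15.4 and 11.7 in whole brain, which did not pass. Hspa1b, its near-identical copy, had 35.6, 24.5 and 17.4 normalized counts in neural cells, against 13.4, 7.31 and 3.89 in whole brain (log2 difference 1.65 ± 0.41, adjusted p = 0.0025). Hsp90ab1 was lower, with 4154, 3843 and 4257 normalized counts in neural cells, against 9459, 11516 and 8148 in whole brain (log2 difference -1.25 ± 0.12, adjusted p = 2.9e-07). It has processed copies, and how their reads were counted is not recorded. Tested genes with a named -ps or -rs copy had a median of 0.53, so rises of genes with copies are uncertain too. Of 19 integrated stress response genes, 16 were tested, 12 were higher and 3 lower; Atf4, the transcription factor at its centre, had 2988, 3016 and 2935 normalized counts in neural cells, against 1060.2, 968 and 881 in whole brain (log2 difference 1.62 ± 0.08, adjusted p = 3.6e-10). Ppp1r15a, which restores translation, had 120.1, 119.6 and 140.2 normalized counts in neural cells, against 49.9, 63.4 and 47.7 in whole brain (log2 difference 1.23 ± 0.17, adjusted p = 1.6e-05). Of 14 inflammatory genes, 5 were tested and 4 were higher. Among them Socs3, a brake on cytokine signalling, had 179, 250.1 and 194.5 normalized counts in neural cells, against 80.2, 84.5 and 57.4 in whole brain (log2 difference 1.47 ± 0.17, adjusted p = 3.0e-06). The 9 untested inflammatory genes came to 17 reads in neural cells and 54 in whole brain. Icam1, an adhesion protein found also on endothelium, is 1 of these and was chosen after its values were seen. It had 3 reads in neural cells and 38 in whole brain, or 10.1-fold lower in neural cells, with a 95% counting interval of 3.21 to 51.2. Of 17 tested p53 targets, 8 were higher and 2 lower, and of 14 tested hypoxia genes, 6 were higher and 2 lower. Over all genes tested, 30.7% were higher and 34.1% lower.

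Metabolic lists moved both ways, as did all genes tested, of which 30.7% were higher and 34.1% lower. Of 20 cholesterol synthesis genes, 9 were higher and 5 lower; Insig1, which holds SREBP in the endoplasmic reticulum, had 1874, 2001 and 1844 normalized counts in neural cells, against 718, 672 and 714 in whole brain (log2 difference 1.44 ± 0.07, adjusted p = 2.3e-10). Fdps had 283, 300.4 and 258 normalized counts in neural cells, against 653, 755 and 612 in whole brain (log2 difference -1.27 ± 0.10, adjusted p = 6.4e-08). Of 23 fatty acid oxidation genes, 11 were higher and 6 lower. Hadhb, a subunit of the trifunctional protein, had 347.9, 365.6 and 313 normalized counts in neural cells, against 127, 138 and 162 in whole brain (log2 difference 1.27 ± 0.11, adjusted p = 2.2e-07). Etfb, an electron carrier, had 33.6, 24.5 and 41.3 normalized counts in neural cells, against 127, 126 and 128 in whole brain (log2 difference -1.91 ± 0.19, adjusted p = 5.7e-07). Of 16 glycolysis genes, 6 were higher and 6 lower, with Pfkp, a phosphofructokinase, at 256, 276 and 304 normalized counts in neural cells, against 1655, 1779.9 and 2555 in whole brain (log2 difference -2.84 ± 0.14, adjusted p = 2.9e-10). Pkm and Gapdh were higher, and Gapdh has many processed copies. Without mitochondrial transcripts in the total, the glycolysis list held 0.277% of reads in neural cells and 0.190% in whole brain.

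The genes that the series deletes were present in both groups. Kat8, which encodes Mof, the histone H4 lysine 16 acetyltransferase, had 372, 326 and 350.95 normalized counts in neural cells, against 221, 213 and 164 in whole brain (log2 difference 0.81 ± 0.12, adjusted p = 2.2e-05). Kansl2 had 554, 493 and 499 normalized counts in neural cells, against 356.4, 302 and 318 in whole brain (log2 difference 0.67 ± 0.09, adjusted p = 2.1e-05). Kansl3 had 697, 739 and 679 normalized counts in neural cells, against 745, 709 and 760.1 in whole brain and did not pass (adjusted p = 0.47). Over 12 genes of the NSL and MSL complexes, 8 were higher and 2 lower, none by 2-fold. Kansl1, the scaffold of the complex, was lower, with 796, 806 and 779 normalized counts in neural cells, against 1446, 1442 and 1497 in whole brain (log2 difference -0.88 ± 0.07, adjusted p = 3.6e-08). Wdr5, an adaptor shared with other chromatin complexes, was higher, with 886, 885 and 792 normalized counts in neural cells, against 504, 523 and 439 in whole brain (log2 difference 0.80 ± 0.09, adjusted p = 2.0e-06).

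Of 15 abundant noncoding RNAs tested, 7 were lower and 3 were higher in neural cells. Meg3, an imprinted long noncoding RNA retained in the nucleus, had 3417, 2921 and 2815 normalized counts in neural cells, against 9943, 9476 and 13629.5 in whole brain (log2 difference -1.85 ± 0.13, adjusted p = 1.7e-08). Snhg11 had 143, 114 and 127 normalized counts in neural cells, against 1877, 2163 and 3311 in whole brain (log2 difference -4.24 ± 0.19, adjusted p = 7.0e-11). Malat1, chosen after its values were seen, had 42650.2, 42049 and 43197 normalized counts in neural cells, against 97436, 84395 and 119696 in whole brain (log2 difference -1.24 ± 0.13, adjusted p = 1.3e-06). Gas5 was higher (log2 difference 1.04 ± 0.09, adjusted p = 1.8e-07). All 15 mitochondrial genome transcripts were lower. Among them mt-Rnr2, the large ribosomal RNA, which makes up most of the mitochondrial share given above, was among the largest falls (log2 difference -7.65 ± 0.30, adjusted p = 1.5e-11). The transcript mt-Co1, chosen after its values were seen, a subunit of cytochrome oxidase, differed least (log2 difference -0.91 ± 0.16, adjusted p = 1.3e-04). Of the same complex, the mitochondrial transcripts mt-Co2 and mt-Co3 were nearly uncounted in neural cells. There mt-Co2 had 2.88, 0 and 1.09 normalized counts, against 1851, 1093 and 1808 in whole brain. Likewise mt-Co3 had 3.84, 2.72 and 0 normalized counts in neural cells, against 3403, 2126 and 3389.6 in whole brain. How reads with several loci were counted is not recorded, so the sizes of the mitochondrial falls are uncertain. In the other sorted Cre cells mt-Co2 was also low, with 0.758 to 8.69 CPM in endothelial cells and 1.73 to 3.21 in pericytes, against 112 to 341 over 12 whole-brain libraries.

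Some of the largest differences fell on genes that share sequence with copies or whose models differ between the tables, and these are uncertain. Among the 15 largest rises were Rps27, Rps23, Rps13, Rps29 and Rpl17, which encode ribosomal proteins. Rps27 had 3468, 3379 and 2901 normalized counts in neural cells, against 38.3, 32.5 and 40.9 in whole brain. Its retrocopy Rps27rt, chosen after its values were seen, had 30.7, 32.6 and 29.3 normalized counts in neural cells, against 1613, 1199 and 1429 in whole brain. Summed, the 2 genes had 3280.3 ± 306 normalized counts in neural cells and 1451 ± 210.4 in whole brain (SD, n = 3 each), a log2 ratio of 1.18 in place of 6.45. Rpl17 with 7 pseudogenes had a log2 ratio of 1.42 in place of 5.12. Over all tested genes whose symbol ends in -ps or -rs, 135 of 162 were lower by at least 2-fold, with a median of -4.52. The 270 tested genes that have such a named copy had a median of 0.53, and 67 of them were higher by at least 2-fold, against 774 of all 15200 genes tested. Gapdh, with many processed copies, had 2851, 2705 and 2652 normalized counts in neural cells, against 229.9, 176 and 177 in whole brain. The 3 largest rises were Sowahc, BC037034 and Rnf113a2, which had between them 1 read in whole brain. In neural cells Sowahc had 419.9, 518 and 445 normalized counts. BC037034 had 475, 439 and 481 there, and Rnf113a2 had 88.4, 99.2 and 126. Rnf113a2 lies at chr12:84417200-84418578 within the bounds of Bbof1 in RefSeq on GRCm38.p6, and whether reads were counted by strand is not recorded. The other large rises were Rny1, a Y RNA, and Slc39a7, a zinc transporter, and the other large falls were the signal recognition particle RNAs Rn7s1 and Rn7s2, Snora43, Rpl6l, H3f3c and Cd93. Of these, Cd93, an endothelial lectin, had 0.961, 4.08 and 3.26 normalized counts in neural cells, against 242, 305 and 240.4 in whole brain (log2 difference -6.59 ± 0.28, adjusted p = 4.0e-11). Multi-copy genes enter the totals above, and how reads with several loci were counted is not recorded in the labels.

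Which sorted population holds the genes that were lower was described with the other sorted Cre controls. Of 500 genes that were lower by at least 8-fold and reached 1 CPM in a sorted population, 6.60% were highest in neural cells, 27.8% in endothelial cells, 19% in pericytes and 46.6% in microglia. Over all genes tested that reached this level, 42.2% were highest in neural cells, 21.4% in endothelial cells, 19.96% in pericytes and 16.4% in microglia. The share of pericytes among the 500 genes was thus near that over all genes. Of the genes that were lower by at least 2-fold, 31.7% were highest in neural cells. The neural values used here also enter the comparison with whole brain, so this is a description with no test.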

How the data were processed

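RNA of sorted neural cells and whole brain of Cre control embryos was sequenced with the Illumina TruSeq kit, per the labels' protocols. Per the submitters' processing notes, STAR, featureCounts and DESeq2 were used with build mm10; no version or option is recorded there. The deposited whole-brain table holds raw counts per Ensembl gene. The deposited neural tables hold a signal, gene counts that the authors divided by a size factor per library, per the file headers; dividing by the value of 1 read gave whole numbers for 100% of values within a tolerance of 0.01. The 3 neural libraries stand in the Mof, Kansl2 and Kansl3 tables with the same recovered reads at every feature, and were read from the Kansl2 table. Of 43626 whole-brain and 47937 neural features, 43084 were joined by Ensembl ID without version (28810 with the same version); Gm42418, Gm26917 and Rn18s-rs5 were left out.

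Read counts were tested with edgeR 4.0.16 (filterByExpr, TMM, quasi-likelihood F test) in R 4.3.3, with Benjamini-Hochberg adjustment over 15200 genes, at a threshold of 0.05. The SE is the difference divided by the square root of F. The step was tested on simulated data for this comparison with 15200 genes, of which 200 were changed. It called 47 of 47 genes at a log2 change of -2, 32 of 44 at -1, 45 of 50 at 1 and 50 of 50 at 2. Of 14685 unchanged genes it called 10. In the data 64.8% of genes passed, so scaling under such broad differences was not tested by the simulation. The 6 libraries were taken as 3 replicates a group by their titles; chi-square per gene between libraries of a group was at least 1.84, above sampling noise, so none was merged. Alternatives used DESeq2 1.42.0 and limma 3.58.1; pandas was 2.3.3. Ratios with 1 to 3 reads in a group have 95% exact binomial intervals, and a floor is 3 reads over the group; both cover counting error only.

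The comparison, its gene lists and the tests were chosen with earlier results of these data known. Named genes are the 15 largest rises and falls with a mean of at least 50 normalized counts and no overlap (without sex-linked and predicted genes), up to 4 members of each list by smallest p, the defining markers, Kat8, Kansl2 and Kansl3, and any member of the lists of non-neural cells, immediate early and heat shock genes. Gene spans, promoters and positions came from RefSeq on GRCm38.p6, matched by symbol for 92.7% of genes tested. A few genes that this rule gives are not reported here.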

Additional observations from a re-analysis of the deposited data

How the results depend on the processing

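No paired analysis was possible because the neural and whole-brain Cre libraries share no replicate number. The count of 774 genes higher by at least 2-fold became 1427 with library totals only, 1210 with genes absent from 1 table taken as 0, and 362 when tested against a 2-fold difference with glmTreat, which also left 1573 of the 2556 lower. Restricting the fit to genes with the same Ensembl version in both tables, an alternative chosen after seeing the data that tests 5799 genes, gave 1644 higher and 2013 lower, of which 420 and 1328 by at least 2-fold. Leaving out each library in turn gave counts of 4332 to 4610 higher, 4836 to 5058 lower, 723 to 929 higher by at least 2-fold and 2329 to 2741 genes lower at least 2-fold in neural cells. Size factors of DESeq2, limma voom, DESeq2, other filters, 18 libraries in 1 fit and leaving out mitochondrial ribosomal RNA (chosen after seeing the data) kept all 4 counts within 1.5 times. Over 214 named genes and all alternatives, 3664 values kept their call, 37 lost it, 13 gained it and none of those called turned its direction; Pomc, Eya2, Prph and Col2a1 lost theirs most often. With library totals only, 10 in place of 13 presynaptic genes were lower. The read shares of the endothelial, pericyte, microglial, erythroid and fibroblast lists kept their direction when mitochondrial transcripts were left out of the total. Those of the pituitary and placodal genes and of the imprinted growth genes turned to lower in neural cells. So did those of the neural progenitor, pan-neuronal, astroglial, thalamic and hypothalamic, midbrain and hindbrain, and NSL and MSL lists. The neural progenitor share was 0.296% in neural cells and 0.249% in whole brain. Without mitochondrial transcripts in the total it was 0.298% and 0.309%. Depth limits genes at 0 to 3 reads, for which only bounds or wide intervals were given.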

Other observations

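Of 4853 features listed in the neural table only, 1809 had a read in a neural Cre library; they could not enter the comparison. Cytosolic ribosomal protein genes, a list added after seeing the data, held 2.78 ± 0.117% of joined reads in neural cells and 1.06 ± 0.0579% in whole brain (SD, n = 3 each), and 72 of 79 tested were higher. With mitochondrial transcripts left out of the total, the shares were 2.79% and 1.33%. Genes of this list, such as Rps27 and Rpl17, share sequence with copies. How reads with several loci were counted is not recorded, so the shares and the count are uncertain. Of the 20 S-phase genes and the 26 immediate early genes tested, 5 and 16 have the same Ensembl version in both tables, and all of these were higher. Several lists had few tested members. Pmp22, the peripheral myelin gene of Schwann cells, had 4.80, 4.08 and 4.35 normalized counts in neural cells, against 31.2, 34.1 and 40.9 in whole brain (log2 difference -2.95 ± 0.35, adjusted p = 3.1e-06 by edgeR). Avil of peripheral ganglia had 63.4, 55.7 and 67.4 normalized counts in neural cells, against 15.1, 23.6 and 25.3 in whole brain. Prlr of choroid plexus had 0, 0 and 1.09 normalized counts in neural cells, against 15.1, 24.4 and 40.9 in whole brain. Ttr, the transthyretin gene of choroid plexus, had only 7, 3 and 3 reads in the neural libraries and 6, 3 and 19 in whole brain. Of 22 axon guidance genes, 7 were higher and 9 lower, beside 30.7% higher and 34.1% lower over all genes tested. Epha4, an ephrin receptor, had 6138, 6523 and 6504 normalized counts in neural cells, against 3024, 2912 and 2395 in whole brain (log2 difference 1.20 ± 0.10, adjusted p = 7.0e-08), and its relative Epha7 had 393, 449 and 447 normalized counts in neural cells, against 983, 961 and 1124 in whole brain (log2 difference -1.25 ± 0.09, adjusted p = 1.9e-08).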
